A study of Drosophila melanogaster with 54 samples.

Results

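The genes kl-2, kl-3, kl-5 and FDY lie on the Y chromosome of Drosophila melanogaster and are described here across 54 libraries of fly embryos and cultured cells, taken after RNA interference against mof and from matching controls. They were chosen by name, and each is 1 of the 17558 genes in each of 4 tables of read counts. The annotation places 71 genes of each table on the Y chromosome, so these are 4 of 71. It lists 113 Y genes in all, so sums over all Y-linked genes below cover only the 71 counted. The Y is a check of the sex given to each embryo, because only males carry it, and its RNA shows which Y-linked genes are read in early male embryos.

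The study measured polyA RNA after depletion of mof, which encodes the acetyltransferase of the dosage compensation complex that acts on the male X. Blastoderm embryos in nuclear cycle 14 (St5) gave 4 mof males, 4 control males, 2 mof females and 2 control females, and gastrulating embryos (St7) gave 6 mof males, 7 control males, 4 mof females and 6 control females. Each St5 or St7 library is 1 embryo, sexed by the submitters after sequencing from msl-2, Sxl, tra and tra2, so the Y was not used. St15 embryos were aged 14 to 16 h and taken in pools of 25, with an Sxl-GFP transgene in every group. They were picked by eye as GFP negative (3 mof and 3 control pools, taken as male) or GFP positive (4 mof and 3 control pools, taken as female). All embryos and cells were kept at 25 °C. S2 cells of the Dmel-2 line gave 3 libraries after dsRNA against mof and 3 after dsRNA against GFP. The mof embryos are progeny of mothers with the maternal driver mat-a-tubGal4 (stock 7062) and the mofRNAi stock 58281, and control embryos those of mothers with the same driver and the controlRNAi stock 36304, both crossed to siblings. Every embryo group therefore shares the driver, which acts in the mother's germline. The genotype field of the St5 control females names the mof stock 58281 instead of 36304, and they are taken as controls from their titles and mof counts. The labels do not say from which stock each Y chromosome came, so a difference between the Y chromosomes of the crosses cannot be told apart from mof depletion.

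The fly Y is almost wholly heterochromatin and holds few protein-coding genes, most of them known for work in the male germline. kl-2, kl-3 and kl-5 are classic male fertility factors: each encodes a heavy chain of the dynein motors that bend the sperm tail, and each is read in primary spermatocytes as a very long transcript with large introns of repeated sequence. FDY is a young gene that came to the Y as a copy of the autosomal gene vig2, and its own role is not known with certainty.

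In the dm6 assembly the kl genes sit near one end of the Y, on chromosome Y from 22250 to 137486 on the minus strand for kl-5, from 336381 to 563165 on the plus strand for kl-3 and from 573088 to 664173 on the plus strand for kl-2. FDY lies apart, from 3022289 to 3024024 on the plus strand. The dynein genes are long and mostly intronic. kl-3 spans 226.8 kb with 13.882 kb of exon in 16 blocks and a largest intron of 120.3 kb. kl-5 spans 115.2 kb with 13.68 kb of exon, and kl-2 spans 91.1 kb with 13.386 kb of exon. FDY spans 1.7 kb with 1.117 kb of exon in 3 blocks. The annotation shows no gene that overlaps kl-2, kl-5 or FDY, while the pseudogene CR45947 lies within kl-3. The source of FDY, vig2, lies on chromosome 3R from 25123373 to 25125619.

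Depth and labels bear on every value below. Libraries held 28278799 to 41513416 counts at St5, 5504650 to 10024836 at St7, 19018190 to 38076982 at St15 and 20487339 to 38772186 in S2 cells. Levels are given as CPM, the count scaled to the total of its library, so 1 count at St7 is worth more CPM than at the other stages. A count of 0 in a St7 female library allows a level of up to 0.314 to 0.463 CPM (3 counts of its total, counting error only). mof itself stood at 1.46 to 4.51 CPM in St5 mof males against 268 to 414 CPM in control males, and in each stage and sex the mof embryos lay below their controls without overlap. In S2 cells mof stood at 50.1 to 72.7 CPM in the mof dsRNA libraries against 65.9 to 71.8 CPM in the GFP dsRNA ones, and these libraries overlapped.

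Across the 3 embryo stages the dynein genes and FDY followed different courses in males. kl-3, kl-2 and kl-5 had their highest means at St7, while FDY had its highest at St15. In control males kl-3 averaged 0.613 ± 0.457 CPM at St5 (SD, n = 4), 1.81 ± 1.04 CPM at St7 (n = 7) and 0.0136 ± 0.0235 CPM at St15 (n = 3). FDY averaged 0.418 ± 0.224, 1.35 ± 0.436 and 7.71 ± 0.622 CPM in the same groups. In mof males kl-3 averaged 0.203 ± 0.291 CPM (n = 4), 3.51 ± 1.16 CPM (n = 6) and 0.0153 ± 0.0266 CPM (n = 3), and FDY averaged 0.133 ± 0.248, 0.563 ± 0.328 and 9.08 ± 1.05 CPM. kl-2 averaged 0, 0.707 ± 0.436 and 0.0314 ± 0.0273 CPM at St5, St7 and St15 in mof males and 0.0418 ± 0.0544, 1.11 ± 0.688 and 0 CPM in control males. kl-5 averaged 0.0140 ± 0.0281, 0.259 ± 0.186 and 0.0318 ± 0.0276 CPM in mof males and 0.0826 ± 0.0453, 0.258 ± 0.227 and 0.0593 ± 0.0642 CPM in control males, so its St5 and St15 levels lay within their spread. Stages come from separate tables and no test was made between them. In whole embryos, fewer cells with a transcript and less of it per cell cannot be told apart.

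**Figure D1:**
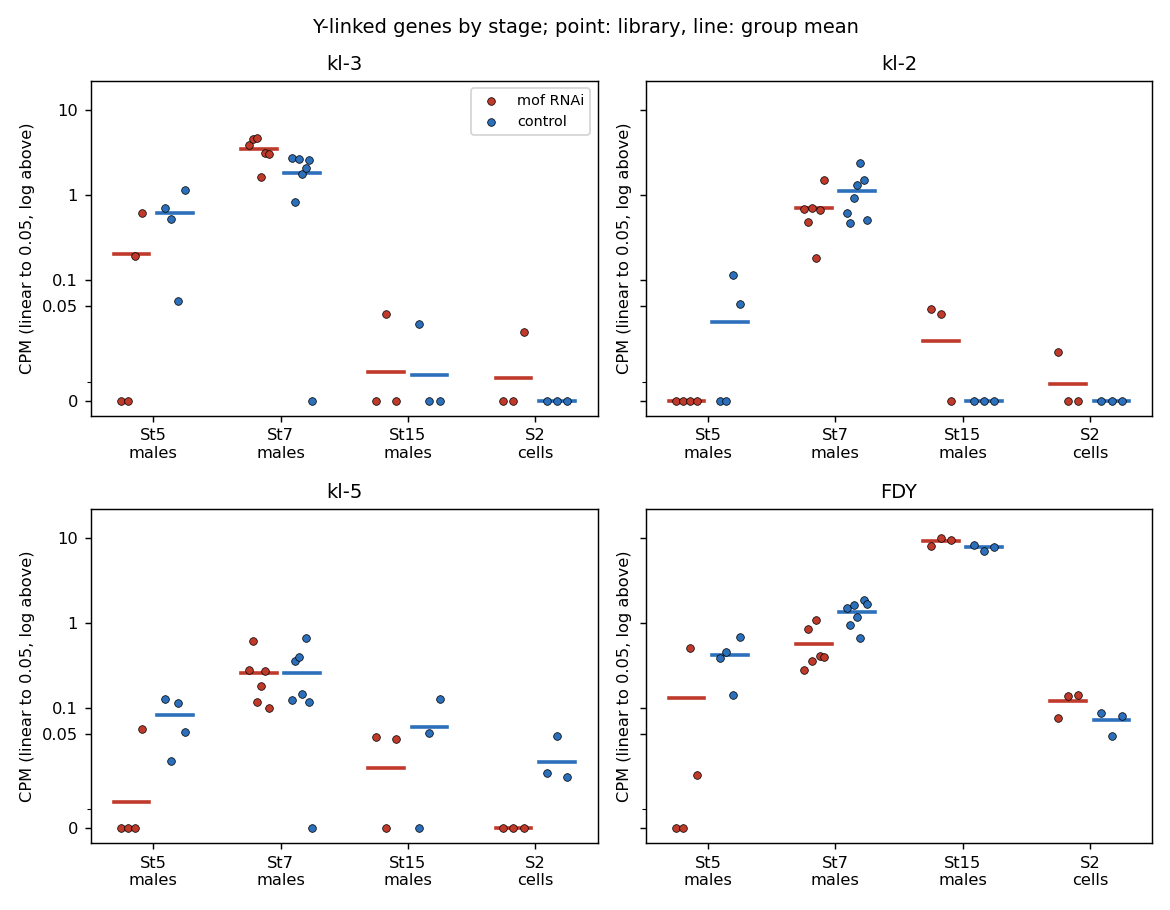
Level in CPM of kl-3, kl-2, kl-5 and FDY in each male library at St5, St7 and St15 and in each S2 library, mof RNA interference left of control, on an axis that is linear to 0.05 and logarithmic above. Points are libraries and lines group means: the dynein genes peak at St7, where kl-3 averages 3.51 CPM in mof males and 1.81 CPM in control males, and FDY peaks at St15, at 9.08 CPM in mof males and 7.71 CPM in control males.

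At St5 the Y-linked genes were read at low levels in 6 of the 8 libraries labelled male. kl-3, the sperm-tail dynein heavy chain with the longest span here, had 0, 0, 7 and 22 counts in mof males 1 to 4, against 22, 15, 2 and 44 counts in control males 1 to 4. Both mof females and both control females had 0 counts. The control males did not overlap the females, but control male 3 came within 2 counts of them, and the 2 mof males at 0 overlap the females fully.

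FDY had 0, 0, 18 and 1 counts in mof males 1 to 4 and 12, 13, 5 and 26 counts in control males, while mof females had 0 and 4 counts and control females 0 and 2. Control males stood above control females, whereas mof males overlapped mof females. kl-5 had 0, 0, 0 and 2 counts in mof males, 4, 1, 4 and 2 counts in control males and 0 in the 4 females. kl-2 had 0 counts in the 4 mof males, 0, 0, 4 and 2 counts in control males and 0 in the females. The kl-2 and kl-5 counts are too few to order libraries.

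**Figure D2:**
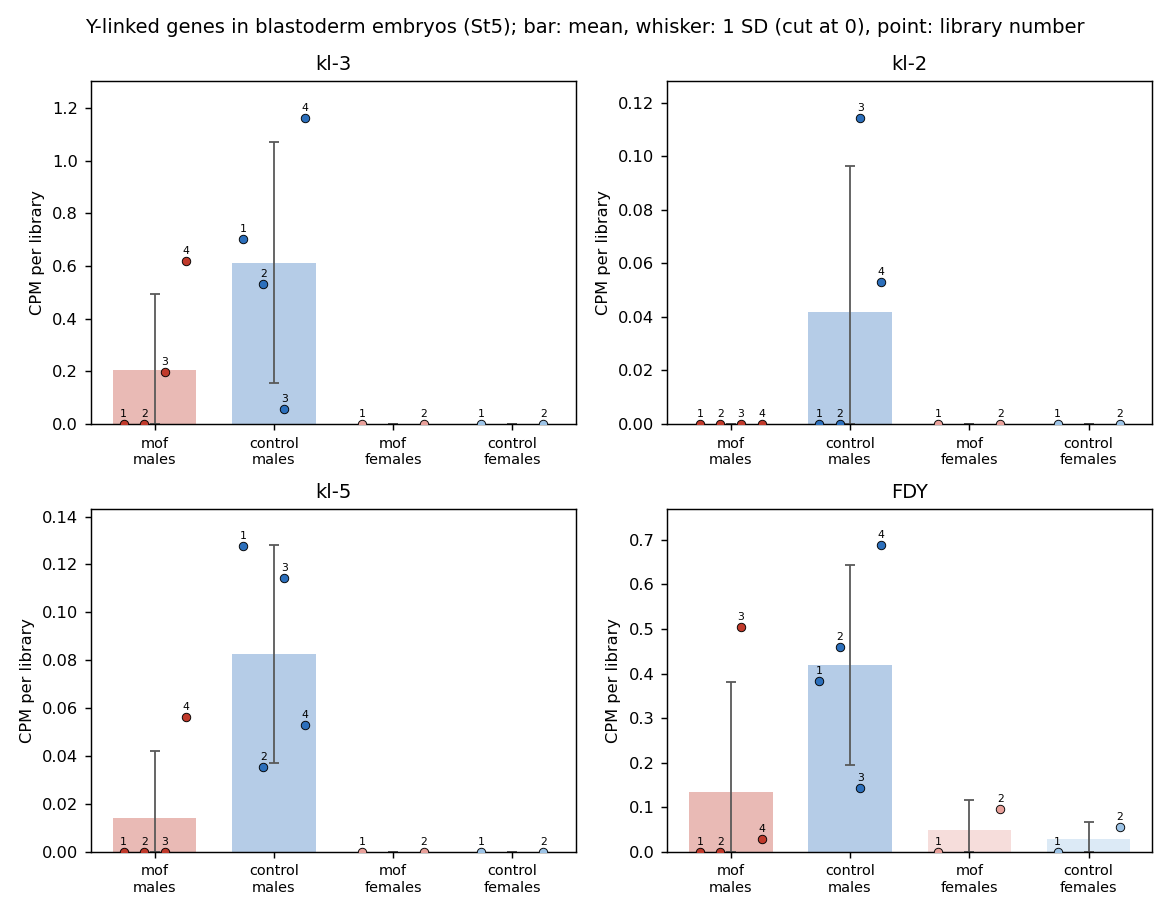
Level in CPM of kl-3, kl-2, kl-5 and FDY in each St5 library, by group, with bars for group means, whiskers for 1 SD and the library number above each point. mof males 1 and 2 sit at 0 for every gene, and the females sit at 0 for the 3 dynein genes.

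Between control males and control females at St5, kl-3 was higher in males by at least 13.3-fold, taking the females at a floor of 3 counts over the group (adjusted p = 0.0353 by the quasi-likelihood test of edgeR, adjusted after Benjamini-Hochberg over all genes tested). In this comparison 62.0% of the 9103 genes tested passed, 34.5% were higher in males, and the libraries of 71.2% did not overlap between the groups, so a gene that passes does not stand out from the background. FDY did not pass, with a log2 fold change of 3.79 ± 1.92 (SE, edgeR adjusted p = 0.103), and kl-2 and kl-5 had too few counts for the filter. With no filter neither passed (edgeR adjusted p = 0.265 for kl-2 and 0.133 for kl-5, whose groups did not overlap). The kl-3 call was lost without control male 1, 2 or 4 or without either control female, with adjusted p between 0.0507 and 0.145. kl-3 and FDY could enter the test through their male counts alone.

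Sex and age cannot be told apart in this comparison. The maternal egg transcript swa stood at 8.79 to 24.8 CPM in mof males and 3.22 to 17.3 CPM in control males, against 299 to 346 CPM in mof females and 273 to 389 CPM in control females. The early zygotic gene halo stood at 1316 CPM or more in all 8 males, against 191 to 368 CPM in mof females and 43.2 and 43.3 CPM in control females. The 5 pole cell and germline genes summed to 64.3 to 114 CPM in mof males and 62.0 to 82.6 CPM in control males, against 523 to 638 CPM in mof females and 594 to 702 CPM in control females. None of the 5 was at 0 in a group, and by edgeR 5 of 5 were lower in control males than in control females and 4 of 5 in mof males than in mof females. Over all 9103 genes tested, 62.0% passed in controls (34.5% higher in males) and 52.7% in mof embryos (27.8% higher in males). The part of these differences in the Y-linked result was not tested.

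In mof males of St5 no tested member passed against mof females or against control males. Against mof females, the kl-3 mean was at least 5.49 times the floor of 3 counts over the females (edgeR adjusted p = 0.0715) and FDY had a log2 fold change of 1.75 ± 1.73 (edgeR adjusted p = 0.411), where 52.7% of genes tested passed and 27.8% were higher in males. Against control males, kl-3 had a log2 fold change of -1.27 ± 1.22 (edgeR adjusted p = 0.519) and FDY one of -1.32 ± 1.23 (edgeR adjusted p = 0.502), where 13.8% of genes passed. These values rest on mof males 1 and 2, which have no count of any member. Without these 2 libraries the difference from control males shrank to -0.30 for kl-3 and -0.35 for FDY (edgeR adjusted p = 0.883 and 0.878), and kl-3 was higher in mof males than in mof females (edgeR adjusted p = 0.0175). FDY in females, compared between mof and control, had a log2 fold change of 0.72 ± 2.18 on 4 and 2 counts (edgeR adjusted p = 0.915, where 4.04% of genes passed).

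Genes known to differ by sex gave mixed values in mof males 1 and 2 of St5. All Y-linked genes together gave 3 and 0 counts in them, where mof males 3 and 4 had 374 and 383 and control males 198 to 356. Sxl, the switch gene of female development, reached 469 CPM in mof male 1 and 400.0 CPM in mof male 2. Its level was 41.6 CPM in mof male 3, 42.2 CPM in mof male 4 and 31.5 to 84.1 CPM in control males, against 8.77 to 22.4 CPM in mof females and 32.5 to 34.5 CPM in control females. Those 2 libraries thus exceeded every other St5 library in Sxl, the 4 females included, and Sxl did not pass between control males and control females (edgeR adjusted p = 0.430). The St5 females differ from the males in age markers, so that comparison does not show how Sxl differs by sex at 1 age. At St7 Sxl stood at 115 to 219 CPM in males and 545 to 899 CPM in females. msl-2, whose product starts dosage compensation in males, was at 73.4 CPM in mof male 1 and 65.5 CPM in mof male 2, within the 47.5 to 228 CPM of control males, against 3.34 to 11.7 CPM in mof females and 1.33 to 3.42 CPM in control females. roX1, a dosage compensation RNA, was at 841 CPM in mof male 1 and 558 CPM in mof male 2, beside 565 and 343 CPM in mof males 3 and 4 and 306 to 732 CPM in control males, against 46.9 to 56.5 CPM in mof females and 17.4 to 25.8 CPM in control females. In roX1 both libraries lay among or above the other St5 males. In msl-2 both lay above the 4 females. They were below mof males 3 and 4, at 217 and 208 CPM, and below control males 1, 2 and 4, at 150 to 228 CPM. msl-2 was also among the genes from which the submitters set the label. The low control value of msl-2 belongs to control male 3, which had 2 kl-3 counts and 6.12 CPM of the later segmentation gene opa, against 323 to 392 CPM in the other control males. opa was at 42.1 CPM in mof male 2 and 233 CPM in mof male 1. At St7 roX1 did not mark males: it was at 1940 to 2528 CPM in mof females against 819 to 1467 CPM in mof males. Y-linked RNA of mof males 1 and 2 of St5 goes against their label. msl-2 and Sxl, which helped set that label, and roX1 cannot decide it, since the St5 females also differ from the males in age markers. Both libraries are called by their labels here.

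**Figure D3:**
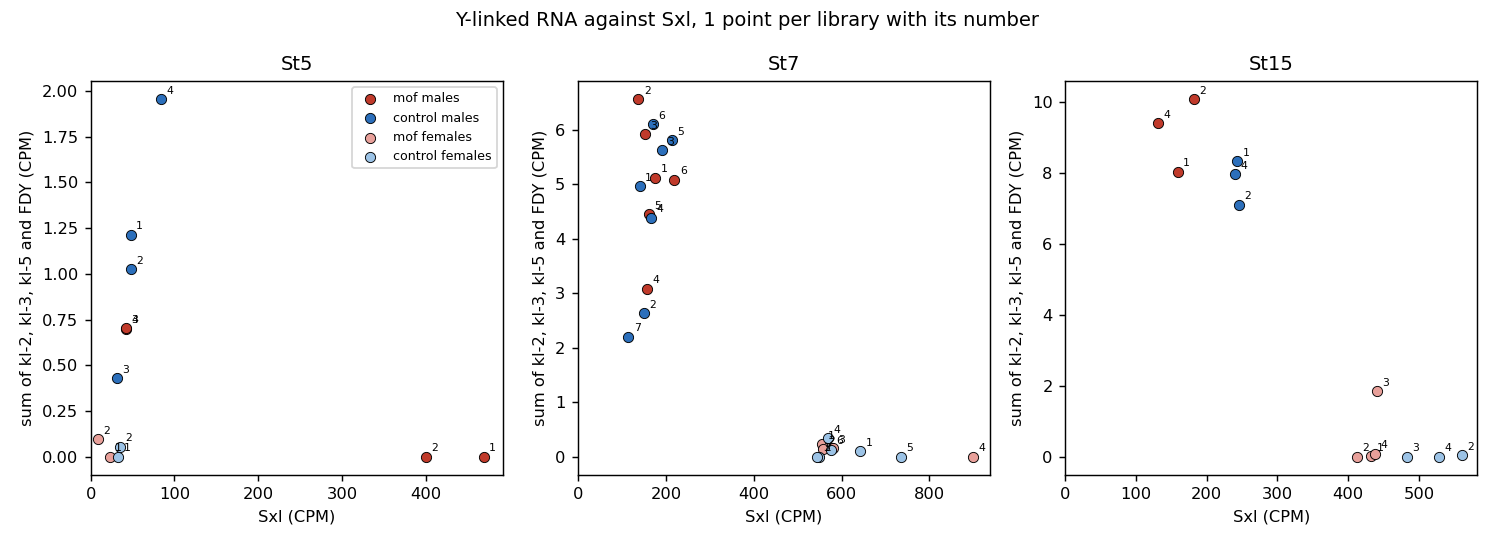
Summed level of kl-2, kl-3, kl-5 and FDY against the level of Sxl, both in CPM, with 1 point per embryo library and its number, at St5, St7 and St15. At St7 and St15 the males form a cluster of high Y-linked RNA and low Sxl, whereas at St5 mof males 1 and 2 hold 0 Y-linked counts at 469 and 400.0 CPM of Sxl.

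Other Y-linked RNA was more abundant than the members at St5. The members held 6.6% of the counts on the Y in mof males and 15.6% in control males. The Su(Ste) repeats, whose RNA silences the X-linked Stellate genes in testis, gave 0 to 207 counts in mof males and 125 to 158 in control males. Their copies are near-identical, so which copy was counted is uncertain, and reads from Stellate could be counted with them. mof female 2 held 41 and control female 1 held 34 Su(Ste) counts, with 0 kl counts in each, while the other female of each group held 0. The pseudogene CR41423 gave 2, 0, 127 and 209 counts in mof males and 43, 42, 16 and 104 counts in control males. Of the other protein-coding Y genes, ARY reached 5 counts in mof males and 8 in control males and ORY 0 and 4, while CCY, PRY, WDY, Pp1-Y1 and Pp1-Y2 had 0 counts in every St5 library.

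At St7 the Y-linked genes marked every male embryo. kl-3 had the highest mean CPM of the members in both crosses, and the 10 females had no count of the 3 dynein genes. The 4 members summed to 17 to 54 counts in mof males and 17 to 52 counts in control males, against 0 to 2 counts in mof females and 0 to 3 counts in control females. The 13 males and 10 females thus did not overlap in that sum. All Y-linked genes together gave 41 to 173 counts in mof males and 48 to 112 in control males, against 1 to 3 in mof females and 0 to 7 in control females.

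The lowest, median and highest kl-3 levels were 1.63, 3.49 and 4.74 CPM over the 6 mof males, against 0, 2.11 and 2.73 CPM over the 7 control males. It was at 0 counts in all females. The male groups overlapped, and 1 library, control male 7, was at 0. For kl-2 they were 0.182, 0.684 and 1.50 CPM over mof males, against 0.479, 0.937 and 2.38 CPM over control males, also with 0 counts in females. Every male had at least 1 kl-2 count. For kl-5 they were 0.0998, 0.226 and 0.608 CPM over mof males, against 0, 0.146 and 0.661 CPM over control males, on no more than 5 counts in a library and with 0 counts in females.

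FDY reached 0.277, 0.402 and 1.09 CPM (lowest, median and highest) over mof males, against 0.661, 1.49 and 1.88 CPM over control males. Unlike the dynein genes it was also counted in females, at 0.238, 0.141, 0.154 and 0 CPM in mof females 1 to 4 and at 0, 0.0523 and 0.343 CPM (lowest, median and highest) in control females. Males stayed above females of the same cross in both crosses, though mof male 1 at 0.277 CPM came close to mof female 1 at 0.238 CPM.

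**Figure D4:**
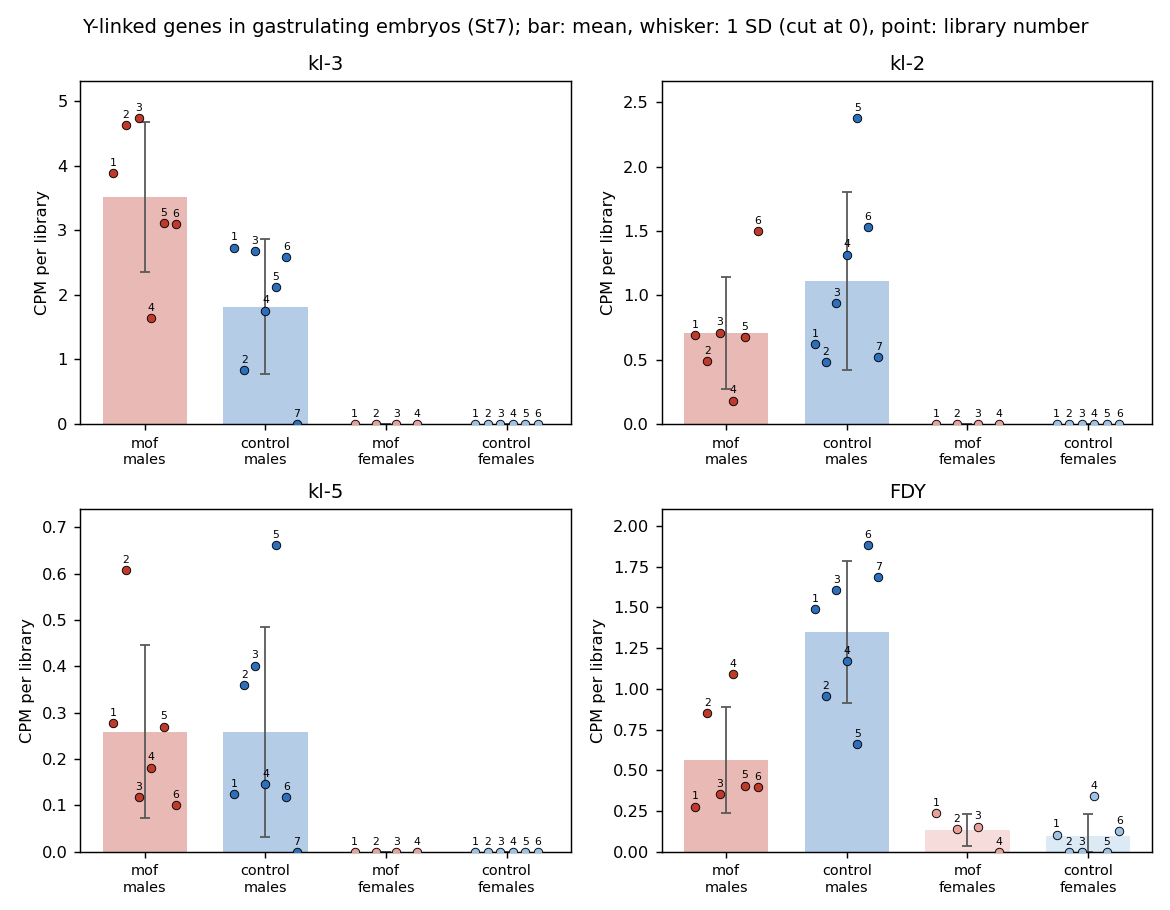
Level in CPM of kl-3, kl-2, kl-5 and FDY in each St7 library, by group, with bars for group means, whiskers for 1 SD and the library number above each point. The dynein genes sit at 0 in all 10 females, kl-3 averages 3.51 CPM in mof males and 1.81 CPM in control males, and FDY averages 0.563 CPM in mof males and 1.35 CPM in control males.

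Control males had more Y-linked RNA than control females at St7. kl-3 was higher by at least 31.5-fold (edgeR adjusted p = 0.000400) and kl-2 by at least 19.3-fold (edgeR adjusted p = 0.000397), each against a floor of 3 counts over the 6 females. FDY was higher by 3.55 ± 0.56 on the log2 scale (edgeR adjusted p = 0.000150). In this comparison 6.22% of 8717 genes tested passed, 0.906% were higher in males, and 3.81% had groups that did not overlap. The kl-2 and FDY groups did not overlap, and those of kl-3 overlapped through control male 7. kl-5 had too few counts for the filter. With no filter it was higher in control males by at least 4.49-fold (edgeR adjusted p = 0.0245). kl-2, kl-3 and FDY could enter the test through male counts alone. CR40801 and CR41423, Y-linked pseudogenes outside the members, were higher in control males too (edgeR adjusted p = 2.1e-06 and 0.000622).

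In mof embryos of St7, kl-3 was higher in males than in females by at least 33.9-fold (edgeR adjusted p = 0.000495) and kl-2 by at least 6.84-fold (edgeR adjusted p = 0.00830), where 6.01% of genes passed and 1.07% were higher in males. FDY did not pass at 1.86 ± 0.71 (edgeR adjusted p = 0.156), although its 6 mof males and 4 mof females did not overlap, as was so for 5.40% of genes tested. kl-5, tested with no filter, reached edgeR adjusted p = 0.113. Whether the sex difference of FDY differs between the crosses was not tested.

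Between mof and control males at St7, kl-3 and FDY leaned in opposite directions, and neither passed. kl-3 had a log2 fold change of 1.08 ± 0.48 (edgeR adjusted p = 0.110) and FDY one of -1.17 ± 0.44 (edgeR adjusted p = 0.0513), where 25.2% of genes tested passed. kl-2 had one of -0.45 ± 0.48 (edgeR adjusted p = 0.534), and kl-5, with no filter, one of 0.14 ± 0.70 (edgeR adjusted p = 0.954). The FDY value lay at the threshold, with adjusted p of 0.0375, 0.0441 and 0.0312 without control male 5, mof male 2 and mof male 4, and 0.0488 without the robust option. In females FDY had a log2 fold change of 0.52 ± 0.87 between mof and control (edgeR adjusted p = 0.701, where 27.8% of genes passed).

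Shares among the members are given here as a description. FDY made up 5.41 to 35.3% of the members' counts in mof males, with a median of 8.46%, and 11.4 to 76.5% in control males, with a median of 30%. kl-3 made up 66 to 85.1% of the 3 dynein genes' counts in mof males, with a median of 80.5%, and 0 to 78.6% in control males, with a median of 54.5%. The male groups overlapped in both shares. Control male 7 has the lowest kl-3 share and the highest FDY share, with 0 counts of kl-3, kl-5 and CR41423 beside 4 of kl-2 and 13 of FDY. Its Sxl, at 115 CPM, and msl-2, at 191 CPM, were near those of the other males and away from the females, which stood at 545 to 899 CPM of Sxl and 43.6 to 67.7 CPM of msl-2. Sxl and msl-2 were among the genes that set its label, so they are no separate check of it.

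Per length, FDY was the highest of the 4 in St7 males. FDY averaged 0.504 ± 0.294 CPM per kb of exon over mof males and 1.21 ± 0.391 over control males, kl-3 at 0.253 ± 0.0836 and 0.131 ± 0.0751, kl-2 at 0.0528 ± 0.0325 and 0.0830 ± 0.0514, and kl-5 at 0.0190 ± 0.0136 and 0.0189 ± 0.0166. Within libraries, FDY exceeded kl-3 per kb in 4 of 6 mof males and in 7 of 7 control males. kl-3 exceeded kl-2 in 6 of 6 mof males and in 5 of 7 control males, so these neighbours are not separated in the control males. kl-2 exceeded kl-5 in 5 of 6 mof males and in 7 of 7 control males. A level by exon length takes reads as spread over the whole transcript, and the files cannot show whether they were.

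At St15 the dynein genes were at the limit of detection and FDY was the main Y-linked RNA. kl-3 gave 0, 1 and 0 counts in mof males 1, 2 and 4 and 1, 0 and 0 in control males 1, 2 and 4. kl-2 gave 1, 1 and 0 counts in mof males and 0 in each control male, and kl-5 gave 1, 0 and 1 counts in mof males and 0, 1 and 3 in control males. The 7 female libraries had 0 counts of all 3. These libraries are deeper than those of St7.

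FDY had 164, 217 and 198 counts in mof males and 203, 140 and 184 in control males, or 7.93 to 9.98 CPM and 7.04 to 8.27 CPM. Females had 1, 0, 39 and 2 counts in mof females 1 to 4 and 1, 0 and 0 in control females 2 to 4. All 6 male libraries lay far above the 7 females, and mof female 3 stood apart among the females at 1.85 CPM. The members held 87.6% of the counts on the Y in mof males and 93.8% in control males, nearly all of it FDY. WDY, a Y-linked gene needed for male fertility, came next among the protein-coding Y genes, with 7, 9 and 21 counts in mof males, 5, 6 and 4 in control males and 0 in every female.

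FDY was higher in mof males than in mof females by 4.30 ± 0.91 on the log2 scale (edgeR adjusted p = 0.00331, where 48.5% of 10684 genes tested passed, 24.4% were higher in males and 50.3% had groups that did not overlap). Without mof female 3 the difference was 7.73 (edgeR adjusted p = 2.44e-07). FDY could enter the St15 tests through its male counts alone. In controls it was higher in males by 8.42 ± 1.62 (edgeR adjusted p = 0.0372, where 1.30% of genes passed, 0.365% were higher in males and 19.6% had groups that did not overlap). That call was lost when any 1 of the 6 control libraries was left out, with adjusted p between 0.0909 and 0.162, and with no filter on low counts (adjusted p = 0.0645). It stood at 1.48e-06 when mof female 3 was kept out of the fit, an alternative chosen after the data were seen. Males of the 2 crosses overlapped, and FDY did not pass between them, with a log2 fold change of 0.24 ± 0.80 (edgeR adjusted p = 0.854, where 34.3% of genes passed). Between mof and control females the log2 fold change was 4.36 ± 2.20 (edgeR adjusted p = 0.167, where 26.0% of genes passed). DESeq2 called this difference (adjusted p = 0.0327), and without mof female 3 it was 0.91 (edgeR adjusted p = 0.64).

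mof female 3 was near the other mof females in the other sex-biased genes, though outside their range in roX1, msl-2, Sxl and roX2. FDY placed it 20.0% of the way from the mean of the other mof females to that of mof males. roX1, at 42.6 CPM in mof female 3 against 37.5 to 41.1 CPM in the other mof females, placed it 1.50% of the way. msl-2, at 12.9 CPM against 10.8 to 12.0 CPM, placed it 3.05% of the way. Sxl, at 441 CPM against 412 to 438 CPM, and roX2, at 1.94 CPM against 2.23 to 2.65 CPM, lay on the far side of the other mof females from the males. Its WDY, kl-2, kl-3 and kl-5 counts were 0. The mof males themselves had 0 or 1 count of each dynein gene and 7, 9 and 21 counts of WDY. The 0 counts of the dynein genes thus cannot place this library, and that of WDY can do so only weakly. Its Y-linked counts numbered 40 in all, of which FDY gave 39.

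**Figure D5:**
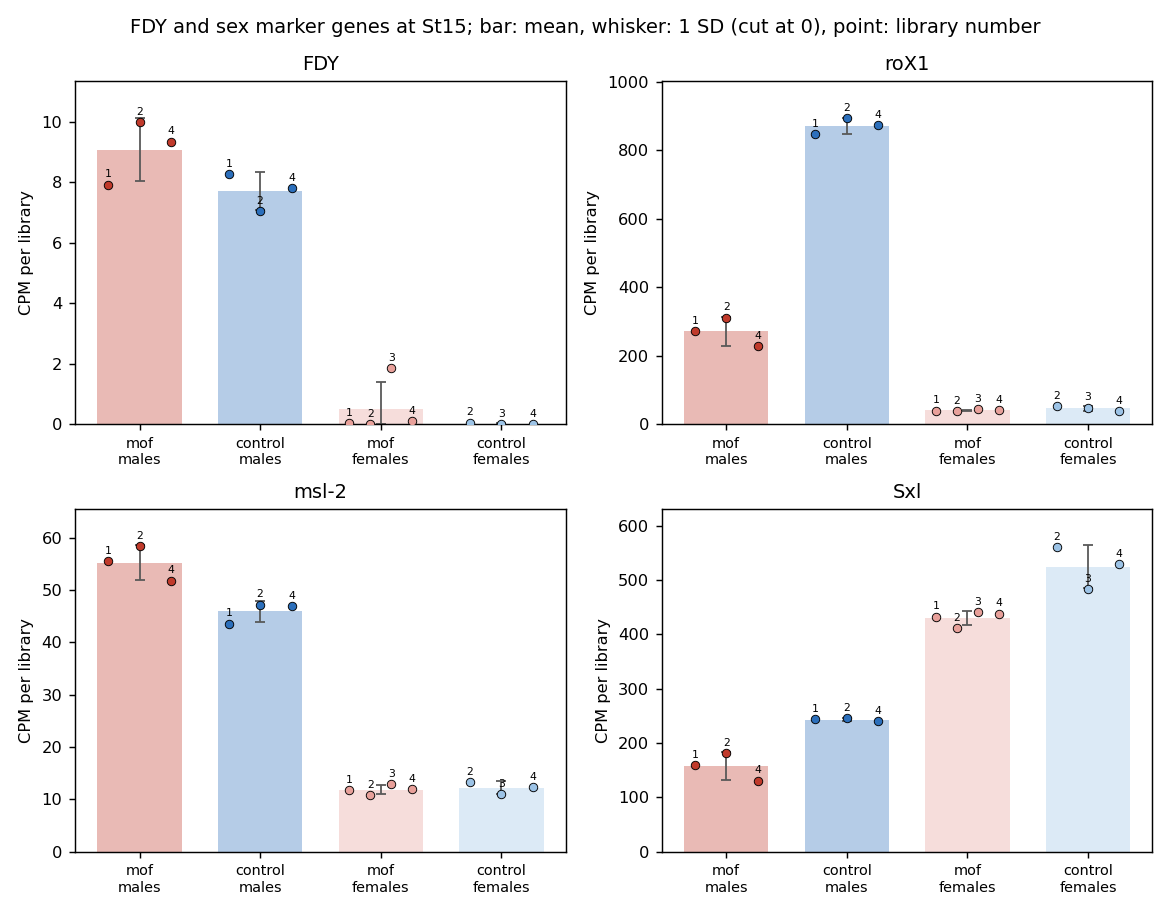
Level in CPM of FDY, roX1, msl-2 and Sxl in each St15 library, by group, with bars for group means, whiskers for 1 SD and the library number above each point. mof female 3 stands apart from the other females in FDY, at 1.85 CPM, and near the other mof females in roX1, msl-2 and Sxl.

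FDY and its autosomal source vig2 could share reads, and how the counting split them is not given in the sources used here, so low FDY values are uncertain. vig2 encodes a protein related to the RNA-binding protein vig and was read in both sexes, at 104 to 162 CPM in St7 mof males and 99.1 to 145 CPM in St7 control males. As a percentage of the vig2 counts of the same library, FDY was 0.229 to 0.708% in St7 mof males and 0.594 to 1.43% in St7 control males, against 0 to 0.162% in mof females and 0 to 0.345% in control females. At St15 it was 3.60 to 4.32% in mof males and 4.27 to 4.65% in control males, against 0.0146, 0, 1.05 and 0.0491% in mof females 1 to 4 and 0 to 0.0250% in control females. The FDY share of vig2 was thus not constant between libraries of 1 sex. vig2 itself was higher in mof than in control males at St15, by 0.40 ± 0.06 on the log2 scale (edgeR adjusted p = 0.000301), and at St7 its value was 0.26 ± 0.10 (edgeR adjusted p = 0.0685).

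In S2 cells the members were close to absent. FDY gave 3, 3 and 4 counts after mof dsRNA and 3, 1 and 3 counts after GFP dsRNA. kl-5 gave 0 counts in each mof library and 1 in each GFP library, kl-2 gave 1, 0 and 0 after mof dsRNA and 0 in each GFP library, and kl-3 gave 0, 0 and 1 after mof dsRNA and 0 in each GFP library. No member had enough counts for the filter, and FDY tested with no filter had a log2 fold change of 0.57 ± 0.83 (edgeR adjusted p = 0.720, where 23.4% of 9676 genes passed with the filter). The FDY share of vig2 counts was 0.0242 to 0.0440% with mof dsRNA, against 0.0186 to 0.0297% with GFP dsRNA, lower than in males of any stage except mof males 1 and 2 of St5. Other Y-linked genes were counted in these cells. The pseudogene CR41509 gave 169, 85 and 125 counts after mof dsRNA and 137, 57 and 130 after GFP dsRNA (log2 fold change 0.31 ± 0.14, edgeR adjusted p = 0.147).

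Of 10 listed dynein heavy chain genes on other chromosomes 8 were matched in the St7 table, and 3 of these had counts enough to be tested. By edgeR 0 were higher and 0 lower in control males than in control females (1 at an unadjusted p under 0.05, and 0 by DESeq2), with a median log2 fold change of 0.20 beside 0.01 over all genes tested. Of all genes tested 6.22% passed there, so 0 of 3 is near the background. Dhc64C, the cytoplasmic dynein heavy chain, averaged 1.28 CPM per kb of exon over mof males and 1.42 over control males, above kl-3 at 0.253 and 0.131. Dhc98D, another heavy chain gene, was lower at St7 in mof than in control embryos of both sexes. Its log2 fold change was -6.75 ± 1.23 in males (edgeR adjusted p = 0.000642) and -6.81 ± 1.55 in females (edgeR adjusted p = 0.00289). The St7 control males varied widely, at 11.8 ± 10.9 CPM. At St15 Dhc98D averaged 5.10 CPM in mof males and 5.22 CPM in control males, and 3.75 CPM in mof females and 5.08 CPM in control females. The crosses also differ in RNAi stock, and the cause was not tested. At St15, 8 were tested and 0 passed between control males and control females by edgeR (1 at an unadjusted p under 0.05, and 0 by DESeq2). Only 1.30% of all genes tested passed there, so 0 of 8 is near the background. Between mof males and mof females 2 of the 8 were higher in males, Dhc62B by 0.50 ± 0.16 (edgeR adjusted p = 0.0225) and btv, a dynein of ciliated sensory neurons, by 0.42 ± 0.11 (edgeR adjusted p = 0.00604), a share near the 24.4% of all genes tested that were higher there. At St5 2 of 6 tested were higher and 1 lower in control males than in control females, beside 62.0% of all genes called and 34.5% higher. In mof males 3 of 6 were higher than in mof females, beside 52.7% of all genes called and 27.8% higher.

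Markers of cells in which dynein genes are known to work were counted beside the members. Of 24 spermatocyte and testis genes 7 were tested at St7, and by edgeR 0 were higher and 0 lower in control males than in control females (2 at an unadjusted p under 0.05, and 0 by DESeq2), with a median log2 fold change of 0.48 beside 0.01 over all genes. Of all genes tested 6.22% passed there, so 0 of 7 is near the background. The list summed to 57.8 to 128 CPM in mof males, 85.8 to 130 CPM in control males, 52.5 to 84.7 CPM in mof females and 57.0 to 99.8 CPM in control females. In control males 9 of the 24 were at 0 counts, among them the protamine genes ProtA and ProtB and the late sperm gene dj. Between mof and control males at St7, 4 of the 7 tested were lower, comr, mia, topi and twe, with a median log2 fold change of -0.66 beside -0.02 over all genes, of which 25.2% passed. Between mof and control females 3 of the 7 passed, 1 higher and 2 lower (bol, comr and mia), where 27.8% of all genes passed. Of 7 ciliated sensory neuron genes 3 were tested and 0 passed between control males and control females, and of 5 pole cell and germline genes 4 were tested and 0 passed (0 of either list at an unadjusted p under 0.05 and 0 by DESeq2). With 6.22% of all genes passing there, 0 calls in lists this short is also near the background.

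Other protein-coding Y genes were scarce at St7 and were counted in males only. ORY, a fertility gene that encodes a coiled-coil protein, gave 1 to 6 counts in mof males and 0 to 5 in control males, ARY gave 0 to 3 and 0 to 4, and CCY and Pp1-Y1 gave 0 in every library. Together the 8 other named protein-coding Y genes, 0 of which had counts enough to be tested, gave 0.237 to 0.730 CPM in mof males, against 0 to 0.869 CPM in control males, and had 0 counts in 10 of 10 females.

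Genes of other chromosomes whose level ranked libraries most like the member with the most counts were taken from each embryo table. This is a description that shares sex, cross, depth and, at St5, age differences with it. Over the 12 St5 libraries, Ctl1, Ent2, Mis12, conv and ebd1 each had a Spearman rho of 0.929 with kl-3, so they are not ranked among themselves. There kl-3 was at 0 counts in all females and in mof males 1 and 2, so its ranks largely follow that split. Over the 23 St7 libraries, Su(var)3-9 had a rho of 0.866 with kl-3, CG17715 0.854, lncRNA:CR43967 0.839, NaPi-III 0.817 and msl-3 0.804. Over the 13 St15 libraries, CG7582 had a rho of 0.934 with FDY, CG33099 0.917, CG3546 and Pxt 0.912 each and CG33459 0.906.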

How the data were processed

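PolyA RNA of single embryos (St5, St7), pools of embryos picked by Sxl-GFP (St15) and S2 cells (10 ug of dsRNA for 3 days at 25 °C) was sequenced from TruSeq Stranded mRNA libraries, per the labels' protocols. The deposited values are raw counts per gene, 1 column per library. Per the submitters' processing notes the build is dm6. The sources used here give no aligner, counter, annotation or use of strand. Titles set the groups. The genotype field of the St5 control females names the mof stock, and that of the St15 mof libraries says control with the mof stock number; titles and mof counts were followed. Nothing in the labels says that S2 libraries came from separate cultures, so p-values there measure only the spread between libraries.

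The members and gene lists were chosen with earlier results of these data known. Named genes follow a rule: the members, other Y genes, the dynein and vig relatives, sex genes, and the 5 genes of another chromosome most like a member. Genes were matched to Ensembl release 115 by ID (17252 of 17558 at St7, St15 and S2) or, at St5, by symbol (12887) and synonym (4498). Member counts were divided by library totals (CPM) and, between genes, by exon length. Each table was fitted alone with edgeR 4.0.16 in R 4.3.3: TMM scaling, filterByExpr, 1 mean per group, robust quasi-likelihood test, no replicate block, Benjamini-Hochberg over all genes tested, with 0.05 as threshold. Standard errors were taken from the fold change (log2, absolute) and F, as their ratio with F under a root. A fold against a group at 0 uses a floor of 3 counts over the group. The fit was first tested on simulated counts. Alternatives were RLE scaling, no filter, DESeq2 1.42.0, no robust option, a replicate block, a fit of the 2 groups alone, each library left out in turn, libraries in doubt left out (mof female 3 of St15, and mof males 1 and 2 of St5 in fits of other groups, chosen after seeing the data), and TMM library sizes for levels.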

Additional observations from a re-analysis of the deposited data

Results flagged for a closer look

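Among 15 combinations of a member and a group of 4 to 10 libraries that held enough counts to look at, 3 had 1 library far from the others of its group by Dixon's criterion, which flags about 1 in 20 by chance. kl-5 stood at 0.608 CPM in mof male 2 of St7, on 5 counts, against 0.0998 to 0.277 CPM in the other mof males. FDY stood at 0.504 CPM in mof male 3 of St5, on 18 counts, against 0 to 0.0281 CPM in the other mof males. FDY stood at 1.85 CPM in mof female 3 of St15, on 39 counts, against 0 to 0.0946 CPM in the other mof females.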

How the results depend on the processing

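Over 21 results and 295 alternatives, 267 kept the direction and the side of the threshold of 0.05, 13 lost the call, 11 gained it and 4 reversed. The values here are edgeR adjusted p unless DESeq2 is named, and the cause of each change was not tested. At St5, kl-3 in control males against control females went to 0.0836 with the replicate block and to 0.0238 to 0.145 with 1 library left out, and FDY went to 0.0205 in a fit of the 2 groups alone. In mof males against mof females, kl-3 went to 0.0275 by DESeq2, to 0.0175 without mof males 1 and 2 together and to 0.0432 to 0.218 with 1 library left out. There FDY reversed with the replicate block (0.993) and without mof male 3 (0.417), in a range of 0.216 to 0.801. In mof against control females FDY reversed without control female 1 (1.0) and mof female 2 (0.912), in a range of 0.756 to 1.0. At St7, FDY in mof against control males went to 0.0488 without the robust option and ranged from 0.0312 to 0.108 with 1 library left out. At St15, FDY in control males against control females went to 0.0645 with no filter and to 0.0909 to 0.162 with 1 library left out, and in mof against control females to 0.0327 by DESeq2 and 0.0168 with the replicate block. Per kb of exon the ratio of kl-3 to FDY was 0.118 in St5 control males, 0.502 in St7 mof males and 0.108 in St7 control males, against 1.47, 6.24 and 1.34 in CPM.

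The genes called over whole tables moved by over 1.5 times in 6 comparisons: 1260 in St5 mof against control males (509 to 2461), 368 in St5 mof against control females (43 to 1965), 139 in St15 control males against control females (23 to 289), 4799 in St5 mof males against mof females (lowest 2813), 2777 in St15 mof against control females (lowest 1384) and 2261 in S2 cells (lowest 1317). Same-numbered libraries deviated together (r over 0.1) in 1 of 14 pairs at St5, 8 of 30 at St7, 5 of 16 at St15 and 1 of 3 in S2 cells. Pairs with different numbers were not compared, so these values cannot decide whether replicate numbers pair the libraries. The block changed no call beyond those given. Low counts limit kl-2 and kl-5 at St5 and all 4 members in S2 cells, and St5 has 2 females a group.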
